A study of Mus musculus with 4 samples.

Results

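The data described here are the signals of 10 mouse genes that act in fat cell differentiation and in the uptake and storage of lipid, namely Lpl, Cd36, Fabp4, Angptl4, Plin2, Pparg, Cebpa, Cebpb, Adipoq and Cfd. They were chosen by name and function, with earlier results of these data known. On the array they had 16 probes of 41145 with a value on every array, and 10 of 27576 gene names. Plin2 stands in the array files under its older name Adfp. Expression was measured on 4 one-colour (Cy3) Agilent arrays of total RNA from mouse embryonic fibroblasts (MEFs), cells of connective tissue cultured from embryos. MEFs that carried Oct3/4, Sox2, Klf4 and c-Myc, the factors of reprogramming to pluripotency, are called four-factor MEFs. They were kept at 5% or at 21% O2 for 72 hours, and their labels give day 4. Untransduced MEFs were kept at 5% or at 21% O2 for 10 days. There was a single array per condition, and the 4 pairwise differences therefore come without a replicate error or a test. The vector, its promoter, the mouse strain and whether embryos were pooled are not given in the sources used here.

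Adipocyte differentiation runs through a short cascade of transcription factors. Cebpb acts early and helps to switch on Pparg and Cebpa, which then hold each other on and drive the genes of the fat cell. Lipid reaches the cell when Lpl, lipoprotein lipase, frees fatty acids from circulating lipoproteins, Angptl4 inhibits that enzyme, Cd36 takes the fatty acids up at the cell surface and Fabp4 carries them inside. Plin2 coats the lipid droplets of many cell types, and Adipoq (adiponectin) and Cfd (adipsin, complement factor D) are proteins that fat cells secrete. Macrophages also make Lpl, Cd36, Fabp4 and Plin2, and Angptl4 and Plin2 are known to be induced by low oxygen as well as by PPAR nuclear receptors.

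The start regions of 3 of these genes are shown because they carry matches, or a contrast in matches, to the motifs of the factors just named. Motifs were searched on both strands in RefSeq promoters of assembly GRCm38.p6, from 250 bases before to 50 bases after each start. The motifs were ACGTG or GCGTG (the core that hypoxia-inducible factors bind), AGGTCA (the hexamer of PPARs and other nuclear receptors), TTGCNNAA (a C/EBP motif) and TATAAA (the TATA box). Capitals mark the matches, and lower case the rest. The first promoter is that of Plin2 at chr4:86670010-86670309 on the minus strand, the next that of Cebpa at chr7:35119043-35119342 on the plus strand, and the last that of the third annotated start of Pparg at chr6:115421816-115422115 on the plus strand.
Plin2: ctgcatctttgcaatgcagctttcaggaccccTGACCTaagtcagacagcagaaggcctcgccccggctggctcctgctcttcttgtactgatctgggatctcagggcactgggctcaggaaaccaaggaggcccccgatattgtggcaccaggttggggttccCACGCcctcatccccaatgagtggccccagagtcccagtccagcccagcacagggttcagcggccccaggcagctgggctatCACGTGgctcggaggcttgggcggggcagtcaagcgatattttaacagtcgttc
Cebpa: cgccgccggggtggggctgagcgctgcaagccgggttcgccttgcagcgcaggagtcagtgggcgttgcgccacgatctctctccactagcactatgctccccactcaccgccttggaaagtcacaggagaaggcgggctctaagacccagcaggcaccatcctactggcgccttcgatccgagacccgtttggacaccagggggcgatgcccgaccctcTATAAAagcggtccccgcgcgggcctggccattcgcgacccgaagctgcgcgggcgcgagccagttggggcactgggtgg
Pparg: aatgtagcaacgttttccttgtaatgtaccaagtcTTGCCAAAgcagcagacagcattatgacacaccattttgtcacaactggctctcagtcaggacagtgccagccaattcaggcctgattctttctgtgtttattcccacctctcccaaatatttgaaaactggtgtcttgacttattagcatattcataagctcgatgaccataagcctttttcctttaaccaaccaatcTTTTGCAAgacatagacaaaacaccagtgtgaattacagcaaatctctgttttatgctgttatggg
In the Plin2 promoter ACGTG lies on both strands within a single CACGTG at -4 to the start (positions give the first base of a match relative to the start), and a GCGTG and an AGGTCA lie on the opposite strand at -86 and -218. The Cebpa promoter holds TATAAA at -30 and no other searched motif. The third Pparg start has a TTGCNNAA match on each strand, at -215 and -16. At the first Pparg start the matches were GCGTG at -242 and -8, both on the opposite strand, and AGGTCA at -28. At the second they were AGGTCA at -9 and, on the opposite strand, TATAAA at -29. Cd36 had AGGTCA at -228 on the opposite strand, and Cebpb had GCGTG at -10 and TATAAA at 22. Adipoq and Cfd had no match in this window. Promoters were matched for 7 of the 10 genes (9 promoters), and those of Lpl, Fabp4 and Angptl4 are not shown. Of all 32851 promoters 43.8% held ACGTG or GCGTG, 16.3% AGGTCA, 10.8% TTGCNNAA and 13.6% TATAAA, so a match to the first is common. A match describes the letters and is not evidence of binding.

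Of the 41174 probes on an array, 57.1% to 68.4% were well above background by the scanner software's flag, and no spot was saturated. The 75th percentile of the signal, on which each array was scaled, was 1148 and 1136 intensity units in four-factor MEFs at 5% and 21% O2, against 871 and 810 in untransduced MEFs at 5% and 21% O2. The labelled cell type was checked first. All 12 fibroblast markers were well above background on all 4 arrays, with 8 of them at least 2-fold lower in four-factor MEFs at each oxygen level. Pou5f1, the gene of Oct3/4, was at least 30.5-fold higher in four-factor than in untransduced cells at 5% O2 and at least 20.4-fold at 21% O2, and Myc was higher by 4.17 and 2.59 log2 units, while Klf4 (-1.70 and -1.14 log2) and Sox2 (-2.82, and at least 5.14-fold) were lower, and the sources used here do not say which stretch of each gene was transduced. Of 21 mature adipocyte markers, 12 to 14 were well above background on an array, near the share over all gene names (56.6% to 66.9%). Cidec, Lep, Retn, Adrb3, Aqp7 and Adig were not well above background on any array. The arrays of each culture lay on a slide and in a scan of their own, so oxygen was compared within a slide. Between the cultures, transduction, time, slide and scan all differ at once and cannot be told apart. In bulk RNA, fewer cells of a type and less RNA per cell cannot be told apart either.

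Of the 10 genes, 8 were well above background in four-factor MEFs at 5% O2, 8 in four-factor MEFs at 21% O2, 9 in untransduced MEFs at 5% O2 and 7 in untransduced MEFs at 21% O2. Over all gene names the shares were 66.9%, 66.7%, 57.7% and 56.6% in the same order. Adipoq was above background in untransduced MEFs at 5% O2 only. Cfd was on no array. Cd36 was on every array but that of untransduced MEFs at 21% O2. Levels below are log2 signals relative to the array's 75th percentile, each from the gene's brightest probe, and levels of different genes are not set against each other because probes differ in brightness. Probe positions are those of mouse build mm8 per the file headers. Whether they fall in exons or untranslated regions was not looked up, since no annotation of that build was used here.

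**Figure D1:**
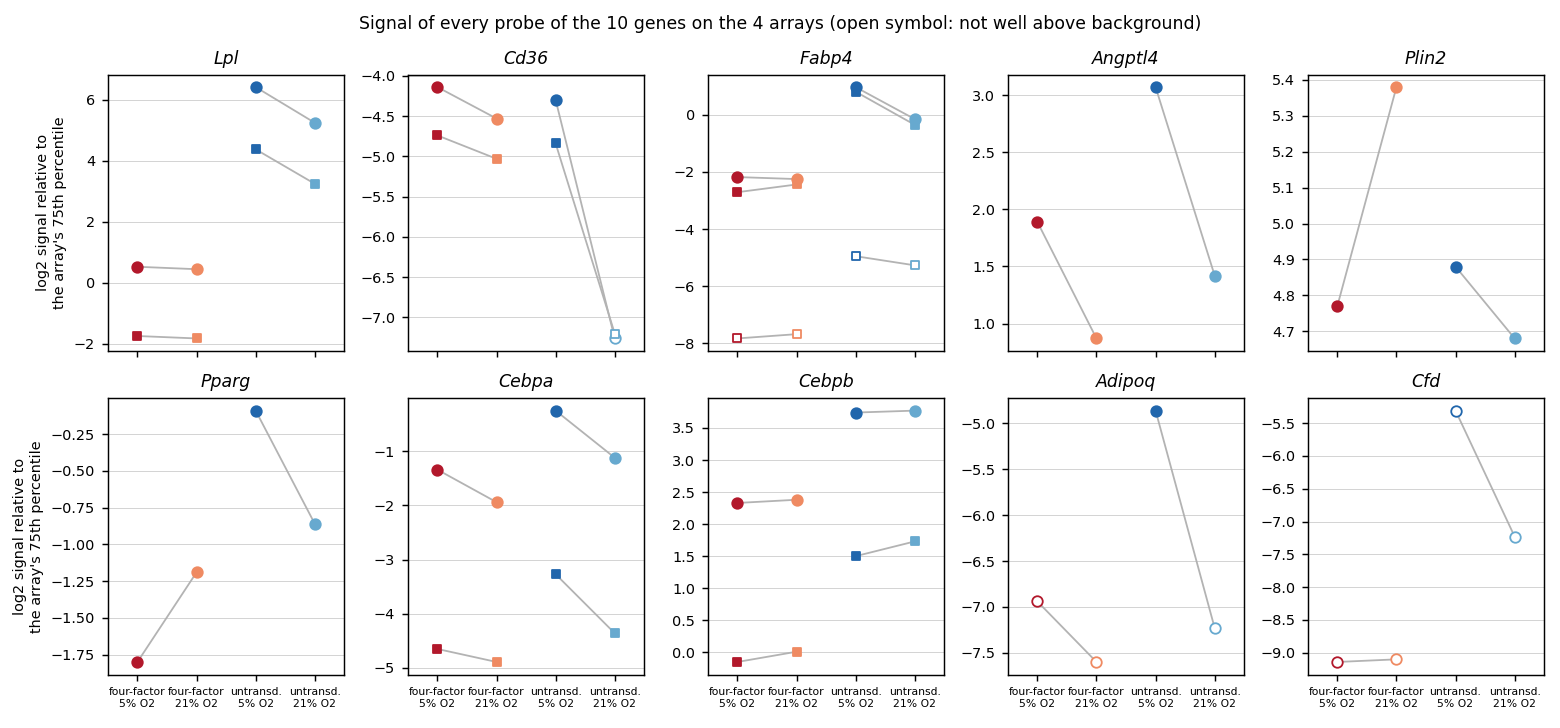
Each panel plots the log2 signal (vertical axis, relative to the array's 75th percentile, with its own range per gene) of every probe of a gene on the 4 arrays, four-factor MEFs in red tones and untransduced MEFs in blue, 1 array per condition. Filled circles are the brightest probe, squares further probes, open symbols are not well above background, and grey lines join the oxygen levels within a culture. Lpl and Fabp4 were lower on both four-factor arrays than on both untransduced arrays, and Plin2 and Pparg had lines that slope in opposite directions in the cultures.

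Lpl had the widest span of the 7 genes measured on all arrays. Its brightest probe (chr8:71835357-71835416, plus strand) had 1660 and 1554 intensity units in four-factor MEFs at 5% and 21% O2, against 74796 and 30878 units in untransduced MEFs at 5% and 21% O2. Both four-factor arrays lay far below both untransduced arrays, and the levels spanned 5.97 log2 units. Four-factor MEFs were 59.4-fold lower at 5% O2 (-5.89) and 27.9-fold lower at 21% O2 (-4.80). The oxygen difference was 1.17 log2 units (2.25-fold higher at 5% O2) in untransduced MEFs and 0.08 (1.06-fold) in four-factor MEFs. A second probe (chr8:71830140-71830199) gave the same picture, at 343 and 323 units in four-factor MEFs and 18158 and 7688 units in untransduced MEFs (5%, then 21% O2). Its four-factor differences were -6.13 at 5% O2 and -5.06 at 21% O2, and its oxygen differences 0.07 in four-factor MEFs and 1.14 in untransduced MEFs.

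Fabp4, the cytosolic fatty acid carrier, followed Lpl at a smaller size. Its brightest probe (chr3:10187065-10187794, minus strand) had 254 and 239 units in four-factor MEFs at 5% and 21% O2, against 1711 and 731 units in untransduced MEFs at 5% and 21% O2. Here too the 2 four-factor arrays were the lowest. The difference between the cultures was -3.15 at 5% O2 (8.89-fold lower in four-factor MEFs) and -2.10 at 21% O2 (4.29-fold lower). At 5% O2 Fabp4 was higher by 1.12 (2.18-fold) in untransduced MEFs, while in four-factor MEFs the oxygen difference was 0.07. A second probe (chr3:10186983-10187043) gave 1.16 in untransduced MEFs and -0.26 in four-factor MEFs, so the direction in four-factor MEFs depends on the probe. The third probe (chr3:10190974-10191033) was not well above background on any array.

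Angptl4, the inhibitor of Lpl, was the 1 gene of the 10 that was at least 2-fold higher at 5% O2 in both cultures. Its probe (chr17:33381815-33381874, minus strand) had 4246 and 2070 units in four-factor MEFs at 5% and 21% O2, against 7289 and 2173 units in untransduced MEFs at 5% and 21% O2. Within each culture the 5% array was the higher one. The oxygen difference was 1.02 (2.03-fold) in four-factor MEFs and 1.64 (3.12-fold) in untransduced MEFs. In four-factor MEFs this value sits at the 2-fold line, and it was 0.91 to 1.17 over the alternative settings. Against untransduced MEFs, four-factor MEFs were 2.26-fold lower at 5% O2 (-1.18) and 1.47-fold lower at 21% O2 (-0.56).

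Cd36, the fatty acid transporter of the cell surface, was dim. Its brightest probe (chr5:17295116-17297548, minus strand) had 64.9 and 49.3 units in four-factor MEFs at 5% and 21% O2, against 44.1 and 5.30 units in untransduced MEFs at 5% and 21% O2, the last of which was not well above background. It was thus measured on both four-factor arrays, but on the 5% array alone among the untransduced. At 5% O2 Cd36 was at least 1.55-fold higher than at 21% O2 in untransduced MEFs, and in four-factor MEFs the difference was 0.38 (1.30-fold). Four-factor MEFs were at least 1.33-fold higher than untransduced MEFs at 21% O2 and differed from them by 0.16 at 5% O2. Cd36 was therefore not among the genes lower in four-factor MEFs. A second probe (chr5:17294606-17294665) was dim on the same array and gave 0.29 for oxygen in four-factor MEFs. Its bound for oxygen in untransduced MEFs was at least 1.07-fold, and between the cultures at 21% O2 it gave no bound above 1.

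Plin2, the droplet coat protein, was well above background on all arrays and had the narrowest span of the 7 genes measured everywhere, 0.70 log2 units. Its probe (chr4:86128003-86128062, minus strand) had 31222 and 47325 units in four-factor MEFs at 5% and 21% O2, against 25649 and 20745 units in untransduced MEFs at 5% and 21% O2. The highest array was that of four-factor MEFs at 21% O2. Plin2 was 1.53-fold lower at 5% O2 in four-factor MEFs (-0.61), with an oxygen difference of 0.20 (1.15-fold higher) in untransduced MEFs. The difference between these 2 values was not tested. Four-factor MEFs were higher by 0.70 (1.63-fold) at 21% O2. At 5% O2 the difference was -0.12, and its sign turned with the scaling (from -0.54 to 0.51).

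Pparg, the nuclear receptor at the head of the fat cell programme, likewise had oxygen differences of opposite sign. Its probe (chr6:115455814-115455873, plus strand) was spotted 10 times on each array, which gives the spread of the spot measurement. The mean was 330 and 496 units in four-factor MEFs at 5% and 21% O2, against 816 and 448 units in untransduced MEFs at 5% and 21% O2. On the log2 scale the 10 spots ran from -1.93 to -1.71 and from -1.34 to -1.12 in four-factor MEFs at 5% and 21% O2, against -0.14 to -0.06 and -0.90 to -0.81 in untransduced MEFs at 5% and 21% O2. The spots of the 4 arrays did not overlap. At 5% O2 Pparg was 1.52-fold lower in four-factor MEFs (-0.60) and 1.70-fold higher in untransduced MEFs (0.76). The standard deviation between spots on a four-factor array was 0.066 at 5% and 0.065 at 21% O2, against 0.024 at 5% and 0.030 at 21% O2 on an untransduced one (10 spots each), so both oxygen differences exceed the spot error. Spots share 1 RNA sample, and this says nothing about the spread between cultures. Four-factor MEFs were 3.26-fold lower than untransduced MEFs at 5% O2 (-1.71). At 21% O2 the difference was -0.34, and 0.07 when arrays were scaled on the spike-in controls.

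**Figure D2:**
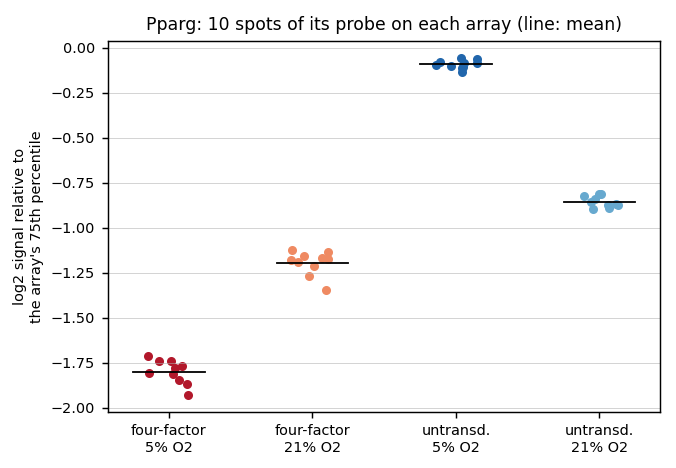
The log2 signal of the 10 spots of the Pparg probe (vertical axis, relative to the array's 75th percentile) is plotted for the 4 arrays (horizontal axis), each point a spot and each line the mean of the spots. The spots of untransduced MEFs at 5% O2 (-0.14 to -0.06) lay highest and those of four-factor MEFs at 5% O2 (-1.93 to -1.71) lowest, with the 21% O2 arrays between them.

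Cebpa, the partner of Pparg in late differentiation, was higher at 5% O2 in both cultures, at less than 2-fold. Its brightest probe (chr7:34830258-34830317, plus strand) had 455 and 297 units in four-factor MEFs at 5% and 21% O2, against 734 and 372 units in untransduced MEFs at 5% and 21% O2. The oxygen difference was 0.60 (1.52-fold) in four-factor MEFs and 0.88 (1.84-fold) in untransduced MEFs. A second, dimmer probe (chr7:34829102-34829161) gave 0.24 and 1.09 for the same comparisons, so it passed 2-fold in untransduced MEFs. Four-factor MEFs were 2.13-fold lower than untransduced MEFs at 5% O2 (-1.09) and 1.76-fold lower at 21% O2 (-0.81).

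Cebpb, the early factor, showed a difference between the cultures and next to none between oxygen levels. Its brightest probe (chr2:167381552-167381610, plus strand) had 5760 and 5899 units in four-factor MEFs at 5% and 21% O2, against 11642 and 11018 units in untransduced MEFs at 5% and 21% O2. Four-factor MEFs were 2.66-fold lower at 5% O2 (-1.41) and 2.62-fold lower at 21% O2 (-1.39). The oxygen differences were -0.05 in four-factor MEFs and -0.02 in untransduced MEFs, and both changed sign under some alternative settings. A second probe (chr2:167381014-167381073) gave -1.65 and -1.72 between the cultures at 5% and 21% O2.

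The 2 secreted proteins of fat cells were at or near background. Adipoq (chr16:23072837-23072896, plus strand) had 9.32 and 5.85 units in four-factor MEFs at 5% and 21% O2, neither well above background, against 30.0 units in untransduced MEFs at 5% O2 and 5.39 at 21% O2, of which the first alone was well above background. It was at least 4.10-fold lower in four-factor MEFs than in untransduced MEFs at 5% O2, and at least 1.05-fold higher at 5% than at 21% O2 in untransduced MEFs, a bound that is barely above 1. Cfd (chr10:79295686-79295745, plus strand) had 2.03, 2.07, 21.9 and 5.40 units in four-factor MEFs at 5% and 21% O2 and untransduced MEFs at 5% and 21% O2, and no level was measured. For 4 genes more than 1 probe was well above background on all 4 arrays, and their probes shared a direction in all comparisons except Fabp4 with oxygen in four-factor MEFs, with gaps of at most 0.37 log2 units.

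**Figure D3:**
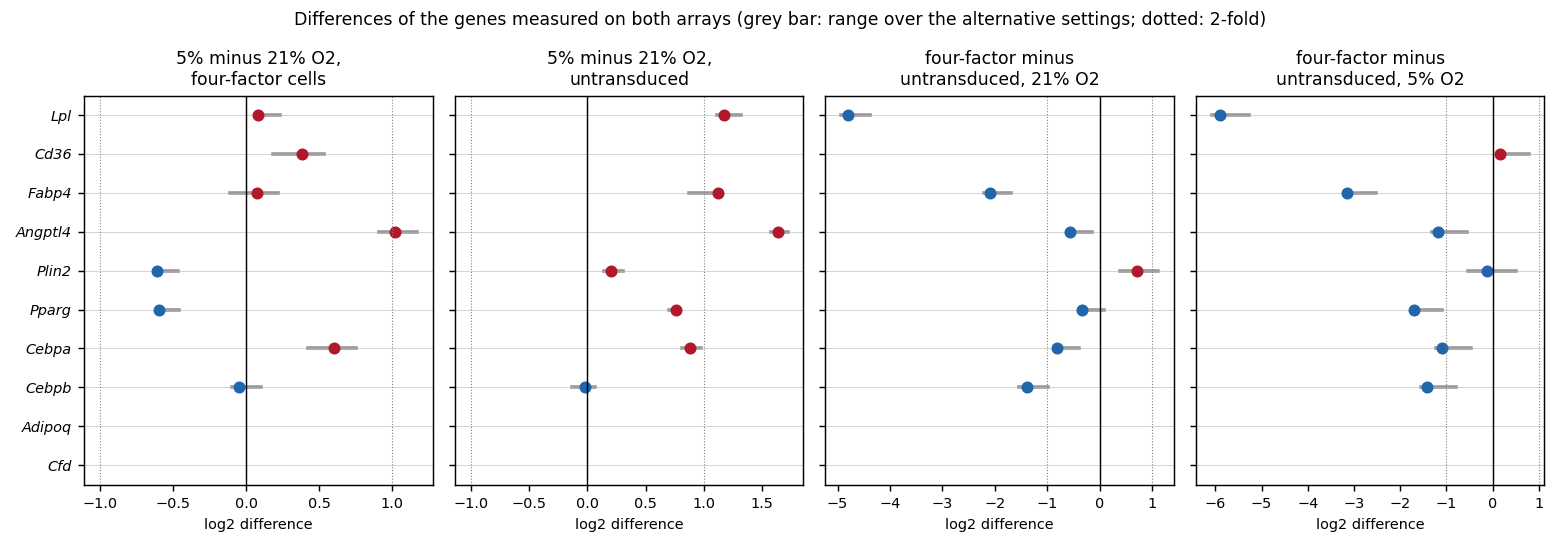
The log2 difference of each gene (horizontal axis) is plotted for the 4 comparisons, for genes well above background on both arrays; points are the values given in the text, grey bars their range over the alternative settings and dotted lines 2-fold. Angptl4 lies at or beyond 2-fold higher in both oxygen panels, and Lpl lies furthest to the left in both culture panels, at -5.89 (5% O2) and -4.80 (21% O2).

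Counted together, 1 of the 8 genes measured on both four-factor arrays was at least 2-fold higher at 5% O2 (Angptl4) and none lower, with a median difference of 0.08. Of all genes measured there, 1.25% were at least 2-fold higher and 1.08% lower. In untransduced MEFs 3 of 7 were at least 2-fold higher at 5% O2 (Angptl4, Lpl and Fabp4) and none lower, with a median of 0.88, against 2.56% higher and 1.72% lower over all genes, whose median was -0.04. Between the cultures 6 of 8 were at least 2-fold lower in four-factor MEFs at 5% O2 (Lpl, Fabp4, Pparg, Cebpb, Angptl4 and Cebpa) and none higher, with a median of -1.30. Over all genes 20.0% were lower there and 17.1% higher. When arrays were scaled on the spike-in controls, which put the median of all genes at 0.60, the count of genes at least 2-fold lower was 3 in place of 6. At 21% O2, 3 of 7 were at least 2-fold lower (Lpl, Fabp4 and Cebpb), with a median of -0.81, against 16.6% lower and 11.8% higher over all genes. The comparisons between cultures and those between oxygen levels share arrays, and their values are not independent.

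An additive limma fit of oxygen and culture over 18279 genes, with 1 residual degree of freedom from the 4 arrays, gave the only errors available. Its error for a gene comes from how far its oxygen effect differs between the cultures, moderated over genes. For the culture term 27.2% of all genes were called higher and 22.8% lower at an adjusted p under 0.05 (4981 and 4161 genes, or 8878 and 2614 with spike-in scaling). Of the 8 genes tested, 5 fell in four-factor MEFs. Lpl had an estimate of -5.35 log2 units (SE 0.32, limma adjusted p = 0.00382, 3.20e-11 to 0.0137 over the alternatives). Fabp4 was at -2.63 (SE 0.31, limma adjusted p = 0.00904) and Cebpb at -1.40 (SE 0.16, limma adjusted p = 0.00857), and both calls held under every alternative tried. Cebpa (-0.95, SE 0.18, limma adjusted p = 0.0200) lost its call with spike-in scaling (adjusted p = 0.162), and Angptl4 (-0.87, SE 0.23, limma adjusted p = 0.0425) under several settings, with an adjusted p of up to 0.264. Pparg at -1.02 (SE 0.38, limma adjusted p = 0.0967), Cd36 at 1.45 (SE 0.68, limma adjusted p = 0.151) and Plin2 at 0.29 (SE 0.26, limma adjusted p = 0.397) did not pass. Adipoq and Cfd were too dim to be tested, and Cd36 entered with a signal near background on 1 array.

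For the oxygen term limma called 0% of genes higher and 0% lower, with 1401 genes at an unadjusted p under 0.05 and a smallest adjusted p of 0.432. Of the 7 members measured on all arrays Angptl4 had the largest estimate, at 1.33 log2 units (SE 0.23, unadjusted p = 0.00475, limma adjusted p = 0.592, 0.0111 to 0.798 over the alternatives). Cebpa followed at 0.74 (SE 0.18, limma adjusted p = 0.592), Lpl at 0.63 (SE 0.32, limma adjusted p = 0.737) and Fabp4 at 0.60 (SE 0.31, limma adjusted p = 0.739). Cd36 was at 1.67 (SE 0.68, limma adjusted p = 0.694), Plin2 at -0.21 (SE 0.26), Pparg at 0.08 (SE 0.38) and Cebpb at -0.04 (SE 0.16). The oxygen effect in four-factor MEFs minus that in untransduced MEFs was -1.37 for Pparg, -1.09 for Lpl, -1.05 for Fabp4, -0.82 for Plin2, -0.62 for Angptl4, -0.28 for Cebpa and -0.03 for Cebpb. All 7 values were below 0 at the main scaling. With spike-in scaling the oxygen difference of Cebpb was 0.10 in four-factor MEFs and -0.09 in untransduced MEFs, so the sign turned for Cebpb. With 1 array per condition the differences were not tested.

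Markers of macrophages were higher at 5% O2 in the same untransduced MEFs in which Lpl and Fabp4 were higher. All 18 macrophage markers measured there were higher at 5% O2, 16 of them at least 2-fold, with a median of 1.42 and values from 0.29 to 3.78. Over all genes measured there, 2.56% were at least 2-fold higher. The summed level of the 20 markers, relative to the 75th percentile of each array, was 1.01 and 1.21 in four-factor MEFs at 5% and 21% O2, against 40.2 and 17.6 in untransduced MEFs at 5% and 21% O2. Bright probes weigh most in this sum. Lyz2 was the brightest of the 20 on both untransduced arrays, at 4.94 (5% O2) and 3.85 (21% O2) log2. At 5% against 21% O2 in untransduced MEFs, F13a1, a transglutaminase subunit, was higher by 3.78 and the mannose receptor Mrc1 by 1.98. Adgre1 (F4/80) was higher by 1.82 and the complement component C1qc by 1.76. At either oxygen level 10 of 20 markers were well above background in four-factor MEFs and 18 of 20 in untransduced MEFs. Over all gene names the shares were 66.9% and 66.7% in four-factor MEFs, against 57.7% and 56.6% in untransduced MEFs (5%, then 21% O2). Adgre1, Mrc1, C1qa and Tyrobp were not well above background on either four-factor array. The lysozyme Lyz2 was lower in four-factor MEFs, at -7.26 (5% O2) and -6.07 (21% O2), and Cd163 was dim on all arrays. Other markers did not follow this pattern between the cultures. Laptm5, a lysosomal protein of blood cells, was higher in four-factor MEFs, at 0.34 (5% O2) and 1.74 (21% O2), the integrin subunit Itgam was at least 1.08-fold and 1.36-fold higher there, and the scavenger receptor Cd68 was at -1.04 and 0.85. For Lpl, Fabp4 and the summed level of the macrophage markers, the highest array was that of untransduced MEFs at 5% O2. The next was that of untransduced MEFs at 21% O2. On these 2 arrays Lyz2 weighs most in that sum. The same order of arrays held for the preadipocyte factor Dlk1 and for the fibroblast markers Dcn, Lum, Pdgfra and Fbln1. The other 8 of 12 fibroblast markers were lower at 5% than at 21% O2 in untransduced MEFs. The part of macrophage RNA in the Lpl, Fabp4 and Cd36 values was not tested. Mature adipocyte markers had a summed level of 11.7 and 12.5 in four-factor MEFs at 5% and 21% O2, against 11.6 and 11.2 in untransduced MEFs at 5% and 21% O2. Here too bright probes weigh most, and single markers differed between the cultures in both directions. The median difference of the 12 measured was -0.92 at 5% and -0.35 at 21% O2 (four-factor minus untransduced MEFs).

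**Figure D4:**
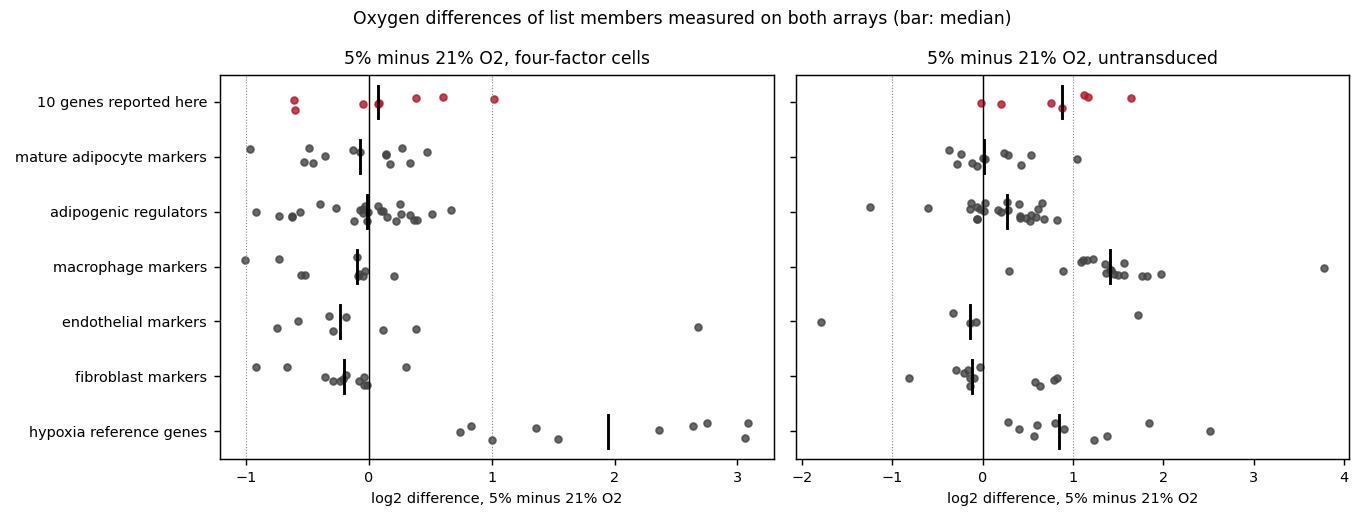
Each point is the log2 difference with oxygen (5% minus 21% O2, horizontal axis) of a gene well above background on both arrays, for the 10 genes and 6 other lists (rows), in four-factor MEFs on the left and untransduced MEFs on the right; black bars are medians and dotted lines 2-fold. In untransduced MEFs the median was 0.88 for the 10 genes and 1.42 for macrophage markers, against 0.01 for mature adipocyte markers and -0.11 for fibroblast markers.

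Other genes of the fat cell programme, like genes at large, passed 2-fold more often between the cultures than between oxygen levels. Over all genes 20.0% were at least 2-fold lower and 17.1% higher in four-factor MEFs at 5% O2, and 16.6% lower and 11.8% higher at 21% O2. With oxygen, 1.25% were at least 2-fold higher and 1.08% lower at 5% O2 in four-factor MEFs. In untransduced MEFs the oxygen shares were 2.56% higher and 1.72% lower. Each list below stands against these shares, and in lists this short 0 or 1 gene past 2-fold with oxygen is near them. Of the 25 adipogenic regulators with a measured difference, 14 were at least 2-fold lower in four-factor MEFs at 5% O2 and 1 higher (median -1.03), and at 21% O2 the counts were 13 lower and 1 higher (median -1.05). Dlk1 (preadipocyte factor 1, which holds back differentiation) was lower, at -5.86 (5% O2) and -5.38 (21% O2). Ebf1, an early activator of the programme, was at -3.20 and -2.60, and Klf15, which promotes it, at -2.24 and -2.30. Ddit3 (CHOP, an inhibitor of C/EBP factors) was at -2.95 (5% O2) and -2.09 (21% O2). The gene that was higher was Ppargc1b, a coactivator of mitochondrial genes, by 2.52 at 5% and 2.46 at 21% O2. With oxygen none of 26 regulators passed 2-fold in four-factor MEFs (median -0.01), and 1 of 25 did in untransduced MEFs, Gata3 at -1.25, a factor that restrains preadipocytes (list median 0.27).

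Among mature adipocyte markers, 12 were measured in each comparison between cultures. In four-factor MEFs at 5% O2 6 were at least 2-fold lower and 2 higher (median -0.92), and at 21% O2 3 were lower and 2 higher (median -0.35). Itih5 was at -4.35 (5% O2) and -4.06 (21% O2), Slc2a4, the insulin-responsive glucose transporter, at -2.83 and -2.97, and Rbp4, the carrier of retinol, at -2.09 and -1.82. Dgat2, which makes triglyceride, was higher by 1.69 at 5% and 1.30 at 21% O2. Plin1 and Thrsp were well above background in untransduced MEFs at 5% O2 only, as Adipoq was. With oxygen the list showed no member past 2-fold in four-factor MEFs (13 measured, median -0.07) and 1 of 12 in untransduced MEFs, the glycerol phosphate dehydrogenase Gpd1 at 1.04 (median 0.01).

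Fatty acid and lipoprotein uptake genes beyond the 10 went both ways between the cultures, with shares near those of all genes. At 5% O2 5 of 21 were at least 2-fold lower and 4 higher in four-factor MEFs (median 0.02), and at 21% O2 4 of 20 were lower and 2 higher (median -0.24). Apoe, the apolipoprotein that macrophages also secrete, was at -5.61 (5% O2) and -4.31 (21% O2), and the receptor Lrp1 at -2.50 and -1.96. Apoc1 was at -2.46 and -1.86, and the very low density lipoprotein receptor Vldlr at -1.85 and -1.78. The fatty acid carrier Fabp5 was higher by 2.11 at 5% O2 and at least 3.95-fold at 21% O2, opposite to Fabp4. With oxygen 1 gene of each culture passed 2-fold, Fabp3 at -1.06 in four-factor MEFs and Fabp7 at 1.04 in untransduced MEFs.

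In the list of lipid droplet and lipolysis genes 5 of 10 were at least 2-fold lower in four-factor MEFs at 5% O2 and 3 of 10 at 21% O2, with none higher (medians -0.89 and -0.49). G0s2, an inhibitor of the triglyceride lipase, was at -4.62 (5% O2) and -3.59 (21% O2), and the lysosomal lipase Lipa at -2.38 and -1.66. The monoglyceride lipase Mgll was at -1.83 and -1.54, and Abhd5, the activator of the same triglyceride lipase, at -1.24 at 5% O2. G0s2 was also the list's 1 gene past 2-fold with oxygen in untransduced MEFs, at 1.69, and no gene of the 11 measured passed in four-factor MEFs. At 21% O2, where Plin2 was higher in four-factor MEFs by 0.70, 3 of the 10 were higher, Hilpda at 0.49, Lpcat3 at 0.12 and Bscl2 at 0.10.

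The partners of Pparg differed less. Among the 11 measured of 12 genes for PPARs, retinoid X receptors and their coregulators, Rxrg alone passed 2-fold with oxygen, at 1.32 in four-factor MEFs and 1.98 in untransduced MEFs, while Rxrb was at 0.07 and 0.14. Between the cultures Ncoa1 was lower in four-factor MEFs at 5% O2 (-1.42) and Ppara at 21% O2 (-1.92). No other gene of the list that was measured on both arrays passed 2-fold. At 5% O2 Ppara was dim in four-factor MEFs and at least 3.90-fold lower there than in untransduced MEFs. In the list of fatty acid oxidation genes, many of them PPAR targets, 5 of 15 were at least 2-fold lower and 2 higher at 5% O2 in four-factor MEFs (median -0.69), and 3 lower and 1 higher at 21% O2 (median -0.29), the last counts being near the shares over all genes. Pdk4 was at -2.42 (5% O2) and -2.48 (21% O2), Acot2 at -2.36 and -2.21 and Ehhadh at -2.29 and -1.95, whereas Acot1 was higher by 2.77 and 2.85. Acot1 and Acot2 are near-identical paralogs, so their values are uncertain. None of these 15 passed 2-fold with oxygen in either culture. Since spike-in scaling shifts every difference between cultures upward, by 0.62 at 5% and 0.41 at 21% O2, the list medians of -0.35, -0.24 and -0.29 at 21% O2 lie within that shift and have no settled sign.

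The genes with the most similar pattern were found by the root mean square difference of log2 levels, each gene centred on its mean over the 4 arrays, among 12243 genes well above background on all arrays. For Lpl they were Adam33 (0.117 log2 units), Comp (0.148) and Rarres2 (0.197), and 7 genes lay within 0.25. For Angptl4 they were Spaca1 (0.146), Pou3f1 (0.171) and Anxa9 (0.206), with 9 genes within 0.25. Fewer genes tend to fall within a fixed distance of a gene with a wide span. These counts therefore do not measure how rare a pattern is. Fabp4 lay closest to Cd300c2 (0.049), Crb2 (0.058) and Pyroxd2 (0.061), with 64 genes within 0.25. Pparg lay closest to Rilp (0.042), Mrgprf (0.063) and Sema3c (0.080), and 233 genes were within 0.25. Nearest to Cebpa were Ddb2 (0.059), Dennd4b (0.073) and Phactr2 (0.079), with 159 genes within 0.25, and nearest to Cebpb were Shank3 (0.016), Tmem167b (0.027) and Nicn1 (0.031), with 881. With 4 arrays such a likeness is a description only.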

How the data were processed

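Per the labels' protocols, Cy3 labelling of total RNA followed Quick Amp version 5.7. Per the file headers, arrays had design 014868 and Feature Extraction 9.5.3.1 from Agilent read them under GE1-v5_95_Feb07. Its processed intensity has the background subtracted, with no normalization across arrays, per the file headers. Raw spot and background intensities were also deposited. A deposited table holds log2 values, made with software not given in the sources used here. For 99.8% to 99.9% of probes these equalled the log2 processed intensity less the 75th percentile of its array, within 0.001, and its columns, with medians of -3.87, -3.86, -3.69 and -3.71 (four-factor MEFs at 5% and 21% O2, untransduced MEFs at 5% and 21% O2), were not centred per probe.

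The same quantity was computed here from the scanner values. Spots with an outlier flag (65 to 115 an array) were left out, and repeats of a probe, which had a pooled standard deviation of 0.069 to 0.128 log2 units, were averaged. The brightest probe stood for a gene. Probes were named through a RefSeq gene table of GRCm38.p6 (24496 by accession, 6234 by symbol, 2386 by synonym) or kept the file's name (8058). Counts cover genes past 2-fold whose signal cleared background on both arrays. With 1 dim side, the fold is a lower bound, for which the dim side takes its own signal or the array's lowest signal that cleared background (9.64 to 26.5 units), whichever is higher. limma 3.58.1 (R 4.3.3, lmFit and eBayes, Benjamini-Hochberg over all genes) was fitted to genes that cleared background on 2 or more arrays and checked on simulated data. The number of arrays limits the precision. Python 3.11.15, numpy 2.4.6 and pandas 2.3.3 did the rest.

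The 10 genes, the lists (168 other genes, 1 not found on the array, none in more than 1 list) and the tests were chosen with earlier results of these data known. Named were all probes of the 10 genes, from each list up to 4 genes with the largest difference per comparison, and the 3 most similar genes of each member measured on all arrays that spans at least 1 log2 unit. Some further genes (Rxrb, Fabp5 and Plin2 beside their relatives, Plin1 and Thrsp, C1qa, Tyrobp, Laptm5, Itgam and Cd68, Hilpda, Lpcat3 and Bscl2, Esam) complete groups and were named after their values were seen. Alternatives were normexp with quantile normalization, quantile, median, spike-in and other percentile scaling, the deposited table, the mean of a gene's probes, and other filters on dim probes.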

Additional observations from a re-analysis of the deposited data

Results flagged for a closer look

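Plin2 and Pparg had oxygen differences of opposite sign in the cultures. For Plin2 the difference between 5% and 21% O2 was -0.61 log2 units in four-factor MEFs and 0.20 in untransduced MEFs. For Pparg it was -0.60 in four-factor MEFs and 0.76 in untransduced MEFs. Each culture had 1 array per oxygen level, and the difference between the cultures was not tested. The signs held under every alternative tried, from -0.62 to -0.47 and 0.14 to 0.31 for Plin2 and from -0.61 to -0.46 and 0.70 to 0.80 for Pparg (four-factor MEFs, then untransduced MEFs).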

How the results depend on the processing

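No paired analysis was possible because each condition had 1 array and the labels give no replicate numbers. The values compared were differences between arrays on which a gene was well above background. These cover 8 of the 10 genes, without Adipoq and Cfd and with only some comparisons of Cd36. Of 210 such values under an alternative setting, 185 moved by less than 0.18 log2 units, 25 moved by more and no called value changed sign. Scaling on the 8 spike-in probes moved all genes by 0.62 between the cultures at 5% O2 and by 0.41 at 21% O2, by 0.15 with oxygen in four-factor MEFs and by -0.06 in untransduced MEFs. Median scaling moved them by 0.17 and 0.15 between the cultures at 5% and 21% O2. The number of the 10 genes at least 2-fold higher at 5% O2 in four-factor MEFs was 0 with normexp and 0 with quantile normalization, against 1. In untransduced MEFs it was 6 with no filter on dim probes, against 3. The genes added were Cd36, Adipoq and Cfd, with 5.30, 5.39 and 5.40 units at 21% O2. These lie under 26.5 units, the lowest signal that cleared background on that array. The share over all genes at this setting is not given here. Between the cultures 1 gene was at least 2-fold higher at 21% O2 with spike-in scaling and 1 with no filter, against 0, and 3 were lower at 5% O2 with spike-in scaling, against 6. In the limma fit, spike-in scaling called 195 genes higher and 132 lower for oxygen, against 0 and 0, including 2 of the 10 genes (Angptl4, adjusted p = 0.0111, and Cd36, adjusted p = 0.0231). For culture it called 8878 higher and 2614 lower, with 2 of the 10 genes higher (Cd36, adjusted p = 0.000172, and Plin2, adjusted p = 0.0154) and 3 lower. With no filter on dim probes 10707 genes were lower for culture. The oxygen estimate of Cebpb turned to 0.02 with normexp, 0.01 with quantile normalization and 0.01 with spike-in scaling, and the culture estimate of Plin2 to -0.08 with normexp. The cause of these shifts was not tested. Genes near background, Adipoq, Cfd and Cd36, are limited by signal.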

Other observations

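Endothelial markers were measured beside the other cell types because endothelium also makes Cd36 and Fabp4. Pecam1 and Tie1 were not well above background on any array, and 9 of 12 markers were in four-factor MEFs at either oxygen level, against 5 in untransduced MEFs at either level. Over all gene names the shares were 66.9% and 66.7% in four-factor MEFs, against 57.7% and 56.6% in untransduced MEFs (5%, then 21% O2). The lowest signal that cleared background was 9.64 and 9.86 units on the four-factor arrays, against 24.9 and 26.5 units on the untransduced ones. Their summed level was 2.83 and 2.46 in four-factor MEFs at 5% and 21% O2, against 2.91 and 3.02 in untransduced MEFs at 5% and 21% O2. Single genes differed in sign. Cldn5, a claudin of tight junctions, was higher by 2.68 at 5% O2 in four-factor MEFs. In untransduced MEFs the receptor Tek was higher by 1.72 at 5% O2 and the sialomucin Emcn lower (-1.79). Erg, a transcription factor of endothelium, was lower in four-factor MEFs, at -4.06 (5% O2) and -4.19 (21% O2). Tek was higher there, at 1.27 and 2.61, as were Esam, an adhesion molecule, by at least 1.49-fold and 1.95-fold, and Cldn5 by at least 2.94-fold at 5% O2.

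Oxygen itself was checked on 10 reference genes of the hypoxia response, all of which were higher at 5% O2 in both cultures. Their median was 1.95 in four-factor MEFs, with 7 at least 2-fold, and 0.85 in untransduced MEFs, with 4 at least 2-fold. The order of the cultures was thus the opposite of that of Angptl4, which was at 1.02 in four-factor MEFs and 1.64 in untransduced MEFs. This difference was not tested.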
